A study of Drosophila melanogaster with 35 samples.

Results

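The 7 genes followed through the deposited data, each known for forming the mushroom body or for working in it, were ey, toy, dac, chinmo, Fas2, rut and dnc. They were taken by symbol, each on 1 line of both expression tables, as 7 of the 14990 genes listed in both. The mushroom body is the paired centre of the fly brain for olfactory learning, and its intrinsic neurons, the Kenyon cells, arise from a small set of neuroblasts that make successive neuron types. Transcription factors set this lineage up, an adhesion molecule holds the axon lobes together, and a cyclic AMP cascade in the same axons serves memory; all of these genes are also expressed outside the mushroom body.

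The study examined DMAD, the fly Tet-family protein encoded by CG43444, and N6-methyladenine in DNA (6mA). BG3C2 cells, which the labels call a fly neuronal line, were labelled wildtype or DMAD knockdown. Knockdown cells were exposed for 144 hours to a 580 bp dsRNA directed at CG2083, as the labels name the gene, after serum starvation and with serum added back later; what the control cells received is not given in the sources used here. Brains were labelled wildtype or DMAD-knockout, with no age, sex or allele in the labels used here. RNA-seq libraries numbered 3 in each BG3C2 group and 2 in each brain group. Libraries of 6mA immunoprecipitation numbered 3 in each BG3C2 group and 1 in each brain group. The deposited tables hold a single FPKM value per gene for each group (fragments scaled to transcript length and library size). The spread among libraries could therefore not be computed, depth is unknown, and the p and q values below are those of the authors. The labels do not say that replicates were separate cultures or fly collections, so these p-values may cover technical spread only.

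Markers set how far each sample stands for mushroom body neurons. In BG3C2, 1 of 9 neuronal markers (elav) reached 1 FPKM in the control, in the authors' deposited table. So did 6 of 8 glial markers, 5 of 7 haemocyte markers and 3 of 8 photoreceptor markers. No fat body marker reached 1 FPKM, nor did any muscle marker with a value (sls, like rut below, had none). In brain, all 9 neuronal markers, 7 of 8 glial, 7 of 8 photoreceptor, 8 of 8 fat body, 7 of 7 muscle and 5 of 7 haemocyte markers did so in control, in the authors' deposited table. CG43444 itself stood at 53.1% of control in knockdown cells (p = 0.0058, q = 0.706) and at 101.0% in knockout brains (q = 1.00), in the authors' deposited tables, so its FPKM did not check the knockout label.

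The transcription factors of the list were at trace levels in BG3C2 and well expressed in brain. The genes ey (eyeless, FBgn0005558) and toy (twin of eyeless, FBgn0019650) encode Pax6-type proteins and lie on chromosome 4, at 718315 to 741799 and at 1010351 to 1028548 (dm3 throughout). The FPKM of ey was 0.267 in control and 0.212 in knockdown BG3C2 cells, and 30.5 in control and 27.7 in knockout brains, in the authors' deposited tables. For toy the FPKM was 0.194 and 0.210 in BG3C2, and 67.2 and 58.2 in brain, in the authors' deposited tables. Both genes thus stood below 1 FPKM in both BG3C2 groups and above 25 FPKM in both brain groups.

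The dac gene (dachshund, FBgn0005677; arm 2L, 16466512 to 16485984) encodes a nuclear cofactor that works with the retinal determination factors and in Kenyon cell development. Its FPKM was 0.125 and 0.172 in control and knockdown BG3C2 cells, and 17.6 and 18.4 in control and knockout brains, in the authors' deposited tables. The chinmo gene (FBgn0086758; arm 2L, 1651258 to 1704682) encodes a BTB zinc-finger factor whose falling level marks the succession of Kenyon cell types. It had the lowest BG3C2 values of the members with a value, 0.0304 and 0.0159 FPKM, and 17.9 and 14.5 FPKM in control and knockout brains, in the authors' deposited tables. These 4 genes were not tested in BG3C2 by the authors (status NOTEST), so their ratios there carry no p-value.

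The adhesion and cyclic AMP genes, all on chromosome X, had a different order. Fas2 (fasciclin II, FBgn0000635; 4026919 to 4100126) encodes a homophilic adhesion molecule of axon bundles that marks mushroom body lobes. Of the 6 members with a value in both tables it alone had more FPKM in BG3C2 than in brain, 116 and 85.1 in control and knockdown cells beside 48.8 and 49.3 in control and knockout brains, in the authors' deposited tables, which were normalised separately. The dnc gene (dunce, FBgn0000479; 3070473 to 3237800) encodes a phosphodiesterase that breaks down cyclic AMP. Its FPKM was 31.1 and 25.1 in BG3C2 and 57.8 and 49.3 in brain, control first, in the authors' deposited tables.

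The rut gene (rutabaga, FBgn0003301; 14681511 to 14720106) encodes the calcium-responsive adenylyl cyclase that makes cyclic AMP in the same cells. It stood at 60.0 FPKM in control and 53.9 in knockout brains, in the authors' deposited table. In BG3C2 it was listed at 0 in both groups with status HIDATA, the flag Cuffdiff gives to a locus with too many fragments to process. All 37 genes with that flag were listed at 0 in both groups of the authors' deposited table, so rut has no BG3C2 expression value here. The nested genes of the dnc locus, 8 in number, stayed at or below 0.861 FPKM in all 4 groups.

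**Figure D1:**
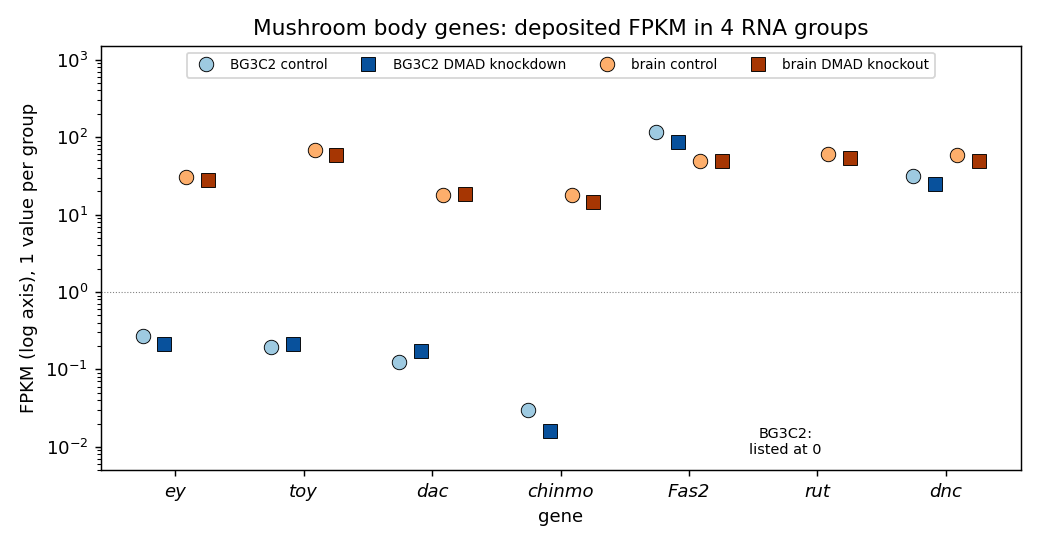
FPKM (log axis) of the 7 genes in the 4 RNA groups, with circles for control and squares for DMAD-depleted groups, 1 deposited value each and no error. In BG3C2 ey, toy, dac and chinmo lie below 1 FPKM (dotted line) while Fas2 and dnc lie above 25; in brain all 7 lie between 14.5 and 67.2.

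In control brain the order of levels, per length, was toy, rut, dnc, Fas2, ey, chinmo and dac, from 67.2 down to 17.6 FPKM in the authors' deposited table. Whether neighbours in this order differ could not be tested with 1 value per group. Toy was higher than 90.0% of all genes in the control brain column and dac higher than 68.2%. In control BG3C2, Fas2 was higher than 93.5% and dnc than 76.6% of genes.

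Whether DMAD depletion changes these genes was addressed within each table, and no member was called different in either tissue. In BG3C2, 0 of the 2 tested members passed (Cuffdiff q below 0.05), where 0.254% of 8645 tested genes did (0.22% higher and 0.0347% lower). In the authors' deposited table Fas2 was at 73.3% of control after knockdown (log2 fold change -0.45, p = 0.148, q = 1.00), and dnc at 80.7% (-0.31, p = 0.376, q = 1.00). The Fas2 ratio was lower than that of all but 5.55% of tested genes, and the dnc ratio than that of all but 9.73%. At an unadjusted p below 0.05, 0 of these 2 members and 2.31% of tested genes passed (1.6% higher and 0.717% lower).

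In brain 0 of 7 members passed, where 0.762% of 8266 tested genes did (0.387% higher and 0.375% lower). At an unadjusted p below 0.05 it was again 0 of 7, where 3.51% of tested genes passed (1.92% higher and 1.58% lower). In the authors' deposited table the log2 fold change was -0.31 for chinmo (80.7% of control, p = 0.172), -0.23 for dnc (p = 0.356), -0.21 for toy (p = 0.377), -0.15 for rut (p = 0.516) and -0.14 for ey (p = 0.585). For Fas2 it was 0.01 (p = 0.951) and for dac 0.07 (p = 0.791), in the authors' deposited table, and q was 1.00 for all 7. The members' median was -0.15, with 5 of 7 below 0, beside a median of -0.01 and 51.3% below 0 over all tested genes. All 7 ratios lay between the 5th and 95th percentiles of tested genes (-0.51 and 0.70). These were bulk samples, labelled brains, in which fewer mushroom body cells and less RNA per cell cannot be told apart.

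Of the markers of other tissues, 3 were called different between the same brain groups: Yp1, Yp2 and trpl. The summed FPKM of the 8 fat body markers was 1750 in control and 739 in knockout brains, with none at 0, in the authors' deposited table. Most of that sum was the yolk protein genes Yp1 (624 and 225 FPKM), Yp2 (383 and 142) and Yp3 (649 and 306, q = 0.252), in brains whose sex is not given, in the authors' deposited table. Fbp2 went the other way, from 1.27 to 6.59 FPKM (p = 0.0463, q = 1.00), as did the untested Fbp1 (1.47 and 2.84), in the authors' deposited table. That of the 8 photoreceptor markers was 4990 and 4480, with 7 of 7 tested members below 0, of which trpl alone was called (270 against 124 FPKM, q of 0.0103), in the authors' deposited table. No glial, haemocyte or muscle marker was called, with medians of 0.06, -0.06 and 0.08. ey and toy are also expressed in the eye and optic lobe, and the part of these tissues in their values was not tested.

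Genes around the members in the same pathways were described from 4 lists without the members themselves. Over all tested genes 0.254% were called in BG3C2 and 0.762% in brain, and 51.6% and 51.3% had a log2 fold change below 0. The first holds fate and temporal identity genes of the mushroom body lineage. In BG3C2, 0 of its 13 tested genes were called, but all 13 had a log2 fold change below 0 (median -0.20), beside 51.6% below 0 and a median of -0.01 over all tested genes. Among those with at least 1 FPKM in both groups, from which all list genes below were named, EcR, the ecdysone receptor that triggers Kenyon cell remodelling, went from 33.9 to 23.2 FPKM (p = 0.0574), and mub, an RNA-binding protein gene, from 66.9 to 53.1 (p = 0.242), both with q = 1.00 in the authors' deposited table. Nearest to 0 were usp, the partner of EcR (59.3 to 58.5 FPKM), and mamo, a BTB zinc-finger gene (13.7 to 13.0), in the authors' deposited table.

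In brain, 0 of 17 tested genes of that list were called and 13 were below 0 (median -0.05). Syp, an RNA-binding temporal factor, went from 65.6 to 50.8 FPKM (p = 0.144), mub from 154 to 128, bsh from 9.29 to 10.9 and grn, a GATA factor gene, from 3.31 to 4.4, in the authors' deposited table. All 4 had a q of 1.00.

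The second list holds genes of axon growth, branching and pruning. In BG3C2, 0 of 31 tested genes were called and 21 were below 0 (median -0.13). At an unadjusted p below 0.05, 2 were lower and 0 higher, where 0.717% and 1.6% of all tested genes were. The netrin receptor gene unc-5 went from 26.8 to 15.6 FPKM (p = 0.012, q = 1.00) and drl, a Ryk-type receptor gene that guides lobe axons, from 2.34 to 1.39 (p = 0.123), in the authors' deposited table. The highest ratios were those of the TGF-beta ligand gene myoglianin (3.73 to 4.39 FPKM) and of Rac2, a GTPase gene (137 to 157), in the authors' deposited table. In brain 0 of 36 were called, with 23 below 0 and a median of -0.04. Its extremes were dnt, another Ryk-type gene (4.26 to 6.28 FPKM, p = 0.207), and plum, listed as CG6490 (10.9 to 8.37, p = 0.134), followed by drl (30.7 to 24.8) and Rac2 (16.8 to 19.9), in the authors' deposited table.

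The third list holds the cyclic AMP and dopamine genes around rut and dnc. In BG3C2, 0 of 14 tested genes were called (median -0.07, 10 below 0), with log2 fold changes among the named genes from -0.31 for Nf1, a Ras regulator needed for cyclic AMP signalling, and -0.14 for the kinase anchor gene spoon, to 0.11 for CrebB-17A and 0.15 for the cyclase gene Ac76E, in the authors' deposited table. In brain 0 of 21 were called, with 15 below 0 and a median of -0.05. The cyclase gene Ac78C went from 6.83 to 9.68 FPKM (p = 0.0762, q = 1.00) and ple, which makes the rate-limiting enzyme of dopamine synthesis, from 45.0 to 51.0, in the authors' deposited table. For Oamb, an octopamine receptor gene, FPKM went from 49.3 to 38.6 FPKM and for DopR2, a dopamine receptor gene, it was 20.7 and 16.8, in the authors' deposited table.

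The fourth list holds other genes of olfactory learning and memory. In BG3C2, 0 of 26 tested genes were called, with 12 below 0 and a median of 0.01. The calcium channel gene cac went from 6.62 to 4.28 FPKM (p = 0.0336, q = 1.00), and the Notch gene N from 34.9 to 26.6, while rgn went from 7.40 to 13.5 and cer, a cysteine protease inhibitor gene, from 178 to 242, in the authors' deposited table. In brain 0 of 42 were called, with 34 below 0 and a median of -0.10. Over all tested genes 0.762% were called and 51.3% were below 0, with a median of -0.01. The arrestin gene krz went from 34.6 to 23.2 FPKM (p = 0.0486, q = 1.00) and mol from 3.78 to 2.38, while the integrin gene scb went from 7.20 to 9.33 and Hn, a phenylalanine hydroxylase gene, from 22.6 to 27.7, in the authors' deposited table.

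**Figure D2:**
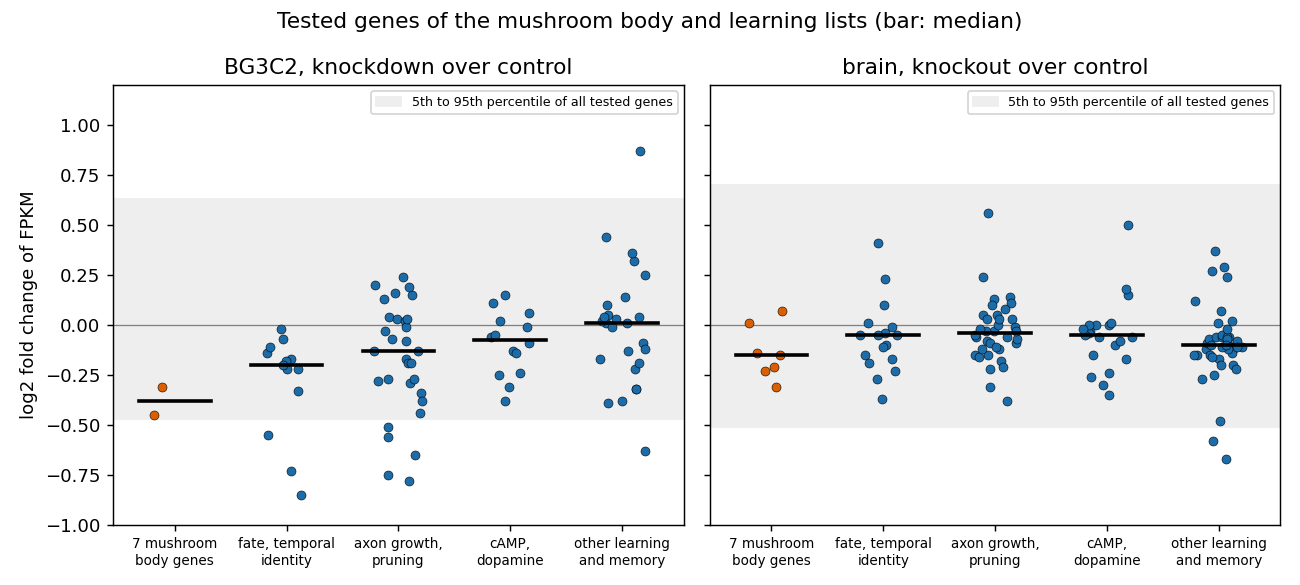
Log2 fold change (y axis) of every tested gene in the 7-gene set (orange) and in the 4 pathway lists (blue), for BG3C2 knockdown over control and brain knockout over control; black bars are medians and the grey band spans the 5th to 95th percentile of all tested genes. No point shown was called by the authors, and all 13 fate genes in BG3C2 lie below 0.

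The genes with the most similar set of 4 values were found by Euclidean distance over log2(FPKM + 1) of the 4 groups among 14953 genes. Nearest to ey were CG10483 (distance 0.061), Sln and CG34357, and nearest to toy were rab3-GEF (0.125), CG13650 and CG6282. Nearest to dac were tld (0.137), CG42594 and CG33696, and nearest to chinmo were CG43676 (0.078), 5-HT2 and CG44153. Nearest to Fas2 were CG9821 (0.186), ytr and Updo, and nearest to dnc were qkr54B (0.198), fd68A and CG31522. With 4 values, of which each pair shares a table, such likeness describes levels only; rut could not be placed.

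Which chromatin features lie on these loci was addressed with 11 deposited region lists. Polycomb (Pc) is a chromodomain protein of a repressive complex, Wds is a subunit of H3K4 methyltransferase complexes, H3K4me3 marks active promoters and H3K27ac active promoters and enhancers. Apart from the brain 6mA list, the H3K4me3 and H3K27ac lists name the cells only as BG3, and the control Pol II list as BG3C3. The others name BG3C2. The labels used here hold BG3C2 libraries for H3K4me3 but no record of H3K27ac or Pol II libraries. The BG3 lists are taken as BG3C2 below, and each is 1 list with no replicate error. The member loci are long, from 18.2 kb for toy to 167 kb for dnc, with a median of 38.6 kb against 2.58 kb over all loci. They are therefore set beside the 1887 gene loci of at least 10 kb, whose median is 20.6 kb.

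The 4 genes at trace levels in BG3C2 all carried Pc, over more than 50% of the locus at chinmo and dac and less at ey and toy, and no H3K27ac. Pc regions covered 63.9% of the chinmo locus (10 regions), 52.1% of dac (7 regions), 25.2% of ey (5 regions) and 14.7% of toy (2 regions), beside 8.13% of the summed length of loci of 10 kb or more. The chinmo value exceeded that of 96.4% of these loci and the dac value that of 95.3%. Neither the control nor the knockdown H3K27ac list held a region at any of the 4, where 65.4% of loci of 10 kb or more had a control H3K27ac region. For ey and toy that is the common state of their chromosome, where 6 of 37 such loci had a region in the control list and 5 in the knockdown list. On chromosome 4, where 33 Pc regions were listed, 7 lay on ey and toy, and 5 of 37 loci of 10 kb or more held any.

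Fas2, rut and dnc all carried H3K27ac, and differed in Pc. Pc covered 0% of Fas2, 2.30% of dnc and 8.40% of rut, while H3K27ac in control cells covered 9.81%, 2.46% and 20.1% of the same loci, with 6, 5 and 6 regions. Set beside the pooled 8.13% for Pc and 11.3% for H3K27ac, rut was near the first and above the second, Fas2 was below both, and dnc was below both with nearly equal shares of each. All 3 Pc regions at rut overlapped H3K27ac and DMAD regions. Over all genes with loci of at least 10 kb, 59.4% of those below 1 FPKM in control BG3C2 and 64.9% of those at 10 FPKM or more overlapped a Pc region, and 51.4% and 95.3% a control H3K27ac region. These shares are over all arms and so do not serve as a background for ey and toy on chromosome 4. Pc regions on chromosome X, which holds Fas2, rut and dnc, numbered 523. Arms 2L, 2R, 3L and 3R held 1518, 1656, 1483 and 2137. Control H3K27ac regions numbered 2310 on X, and 2089, 2530, 2307 and 2923 on those arms. The pooled 8.13% for Pc is over all arms. Low Pc cover at Fas2 and dnc thus cannot be told apart from fewer Pc regions on X.

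**Figure D3:**
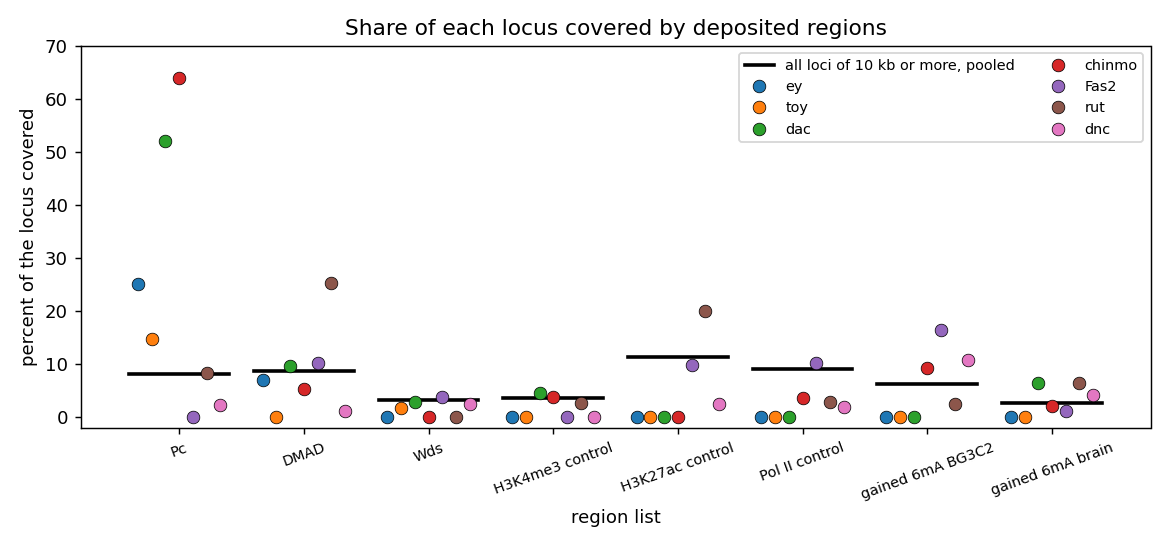
Percent of each locus covered (y axis) by 8 region lists (x axis), 1 point per gene; black bars give the covered share of the summed length of all loci of 10 kb or more. For Pc, chinmo (63.9%) and dac (52.1%) stand highest and Fas2 is at 0%; for H3K27ac, ey, toy, dac and chinmo are at 0% and rut is at 20.1%.

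DMAD was listed at 6 of 7 loci, with toy the exception, against 58.4% of loci of 10 kb or more. On chromosome 4 only 4 of 37 such loci held a DMAD region, so its absence from toy is the common state there. Of the 15 DMAD regions, the 4 at ey, dac and chinmo all overlapped Pc and none overlapped H3K27ac, whereas of the 11 at Fas2, rut and dnc, 3 overlapped Pc and 9 H3K27ac. Over all 5092 DMAD regions on the main arms, 62.9% overlapped Pc, 75.2% H3K27ac, and 14.8% Pc without H3K27ac. Fas2, rut and dnc lie on X, with 523 Pc regions, while dac and chinmo lie on 2L, with 1518, and ey on chromosome 4. Member group and arm therefore cannot be told apart in this contrast. The densest DMAD cover was at rut, with 5 regions over 25.4% of the locus, more than in 82.9% of loci of 10 kb or more.

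Of the 4 DMAD regions at ey, dac and chinmo, 2 overlapped a control H3K4me3 peak, against 52.1% of all DMAD regions; the second dac region (16485303 to 16486801) overlapped Pc and Wds and no H3K4me3 peak. In dac, a DMAD region at 16483666 to 16484863 overlapped a Pc region and an H3K4me3 peak in both the control list (score 91.54) and the knockdown list (74.82). In chinmo, a DMAD region at 1694329 to 1697143 lay on Pc and on 2 H3K4me3 peaks of each list, with scores of 87.81 and 83.27 in control and 53.75 and 64.2 in knockdown. In ey, a DMAD region at 724181 to 725822 lay on Pc and on an H3K4me3 peak of the knockdown list only (724238 to 725420, score 65.14). These scores, the authors' own per peak, were low in their lists: at most 9.44% of control peaks and 3.90% of knockdown peaks scored lower than the highest of these. The lists stop at a score of 50.0, so a peak found in 1 list only and close to that limit does not show a difference between the groups. Of all DMAD regions, 2.26% had Pc and control H3K4me3 without control H3K27ac, and the dac and chinmo regions were 2 of these.

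The only other H3K4me3 peak inside a member locus was at the high-coordinate end of rut (14718842 to 14719890, score 549.61 in control), present in the knockdown list too (800.58). It coincided with H3K27ac, with a control Pol II peak scoring above 93.0% of its list, with a DMAD region, and with the single gained 6mA window at rut in BG3C2 (37.5 to 38.5 kb from the low-coordinate end). Active marks were thus listed at a gene whose BG3C2 expression value is missing. H3K4me3 peaks also lay within 1 kb outside Fas2 (score 3100), dnc (1594.81) and chinmo (3100) in control cells, on the loci of the neighbouring genes GlcAT-I, CG3939 and cpb. The median score of that list was 2140, above the peak beside dnc. Regions counted at dnc also crossed that end of the locus and lay mostly outside it, on CG3939. They were a DMAD region (3069168 to 3070914), a control Pol II peak (3068954 to 3070895) and an H3K27ac peak of each list (3069047 to 3070796 in control).

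**Figure D4:**
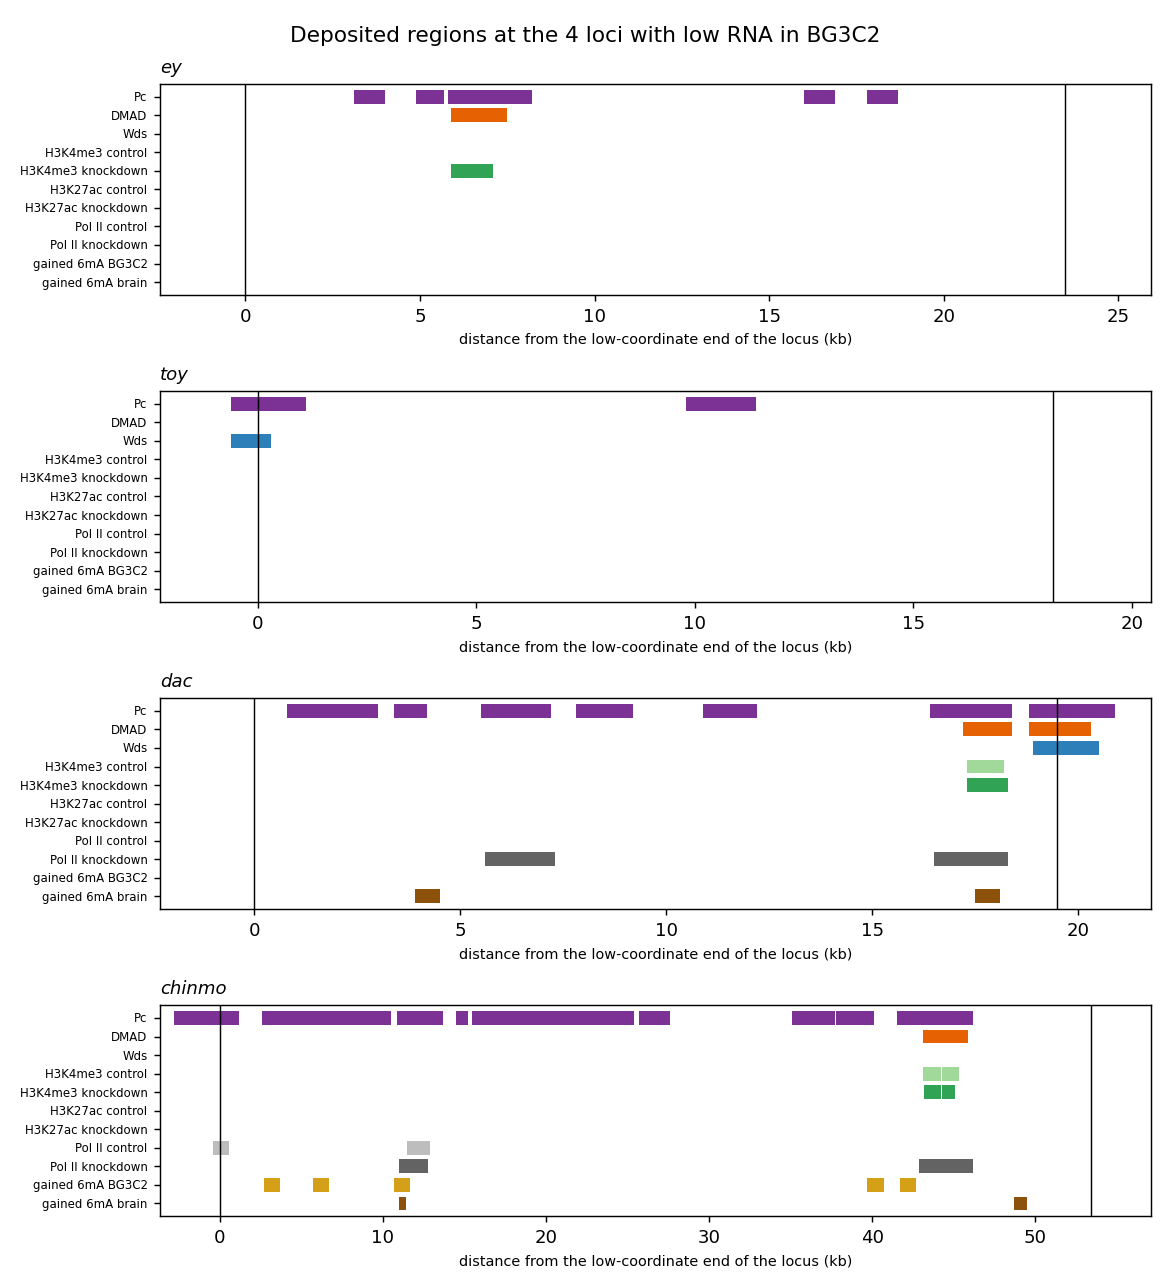
Deposited regions along ey, toy, dac and chinmo; the x axis is distance in kb from the low-coordinate end of the locus (strand is not used), each row is 1 region list, and black lines mark the locus ends. Pc bars run along much of dac and chinmo, H3K27ac rows are empty in all 4 maps, and the DMAD bars of ey, dac and chinmo overlap Pc bars.

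Between control and knockdown cells, the H3K27ac and H3K4me3 lists differed little at the members. Of 17 control H3K27ac peaks at member loci 16 overlapped a knockdown peak (94.1%, against 93.3% of all peaks), and the exception was the lowest-scoring of them, in dnc (51.5). All 4 control H3K4me3 peaks did so, against 94.4% of all.

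The Pol II lists differed more. Fas2 had 5 control peaks and 1 knockdown peak, rut 1 and 0, dnc 4 and 2, chinmo 2 and 3, and dac 0 and 2, with none at ey or toy. On chromosome 4, 7 of 37 loci of 10 kb or more held a control peak and 6 a knockdown peak. Of 12 control peaks at member loci 2 overlapped a knockdown peak (16.7%), against 50.3% of all control peaks. For the X-linked members the count was 1 of 10, and on the whole of chromosome X 21.0% of control peaks did so, since the knockdown list holds 236 peaks on X and the control list 733. On arms 2L, 2R, 3L and 3R the lists hold 7099 and 5981 peaks. The labels used here hold no record of the Pol II libraries, and with the control list named BG3C3, cell line, library and knockdown cannot be told apart. Of all knockdown Pol II peaks 45.4% overlapped a control peak (44.7% on arms 2L, 2R, 3L and 3R), so most did not. The 2 knockdown Pol II peaks at dac and 2 of the 3 at chinmo were likewise without an overlapping control peak. All 4 overlapped Pc regions, at loci where these cover 52.1% (dac) and 63.9% (chinmo), and at genes whose RNA stayed at trace level. The share of all knockdown Pol II peaks that overlap Pc is not given here.

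**Figure D5:**
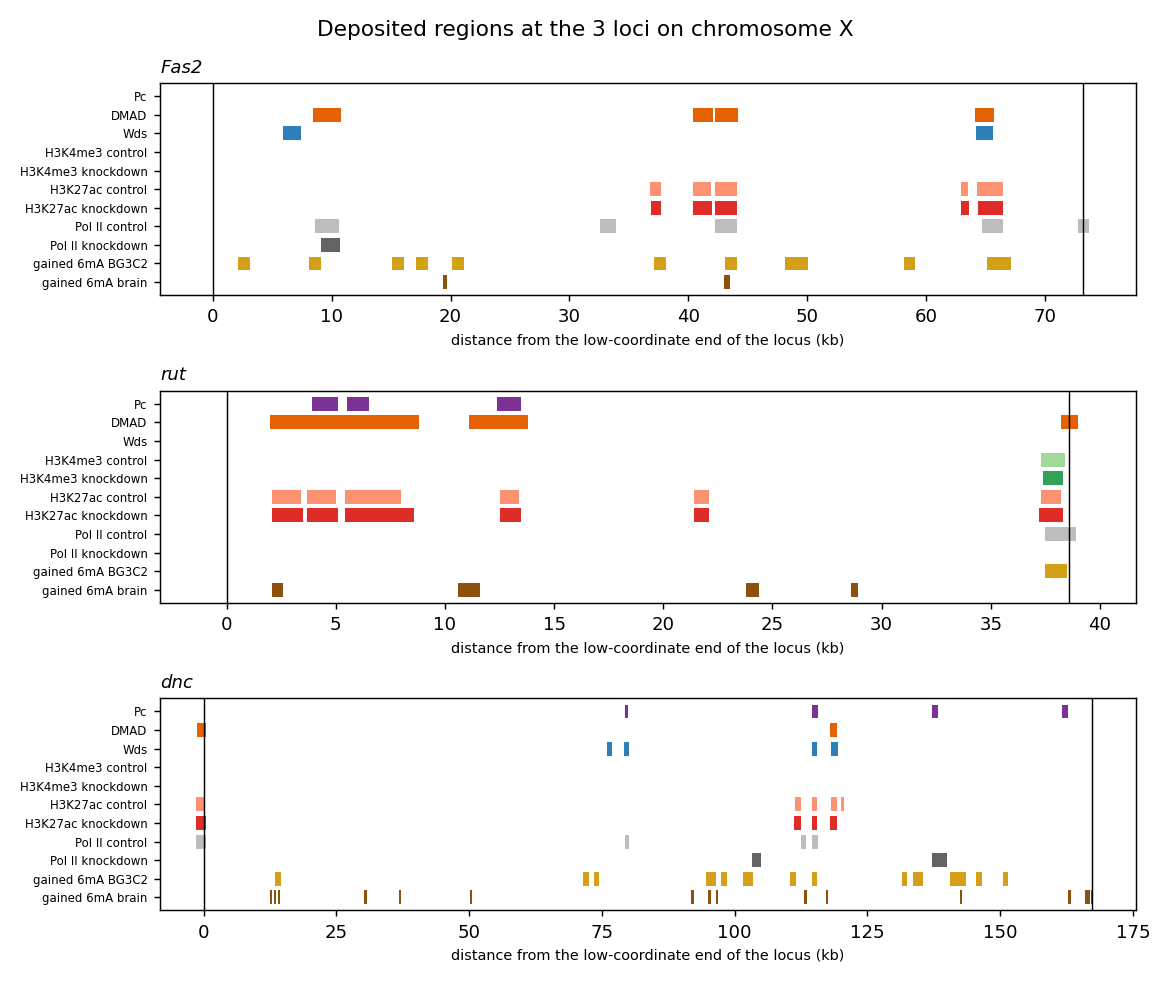
Deposited regions along Fas2, rut and dnc, drawn as distance in kb from the low-coordinate end of each locus, with 1 row per region list and black lines at the locus ends. H3K27ac rows of control and knockdown cells match closely, Pol II rows do not, and gained 6mA windows are spread along Fas2 and dnc.

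Gained 6mA was listed at Fas2, dnc, chinmo and rut in BG3C2 and at these genes and dac in brain. The BG3C2 list had 12 windows at Fas2, 18 at dnc, 5 at chinmo and 1 at rut, and none at ey, toy or dac. Fas2, with 16.4% of its length in gained windows, exceeded 93.8% of loci of 10 kb or more, and dnc, with 10.8%, exceeded 84.0%. The 5 chinmo windows all overlapped Pc regions, at a locus where these cover 63.9%. Over all members 6 of 36 windows did so (16.7%, against 13.7% on the main arms).

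The brain list had 15 regions at dnc, 4 at rut and 2 each at Fas2, chinmo and dac, and none at ey or toy. By length covered, dac (6.47%) and rut (6.44%) were above 91.9% and 91.7% of loci of 10 kb or more. Chromosome X, which holds rut, had 1345 of the 4966 brain regions on the main arms. The labels hold 1 control and 1 knockout brain library for 6mA, so spread among libraries could not be computed. One dac region (16483977 to 16484650) lay on the spot that carried DMAD, Pc and H3K4me3 in BG3C2. On chromosome 4, 18 BG3C2 windows and 24 brain regions were listed, and 7 and 9 of 37 loci of 10 kb or more held any, so their absence from ey and toy is the common state there.

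Windows of the BG3C2 and brain lists met at 3 of the genes. Of 36 BG3C2 windows at members, 7 overlapped a brain region (19.4%, against 14.5% on the main arms), 5 of them in dnc, 1 in Fas2 and 1 in chinmo. Of 25 brain regions at members, 7 overlapped a BG3C2 window (28.0%, against 16.8%). The Fas2 pair (window 4070001 to 4071000) lay on a DMAD region with H3K27ac and control Pol II. The chinmo pair (brain region 1662305 to 1662657) lay in a Pc region with Pol II peaks of both lists over its BG3C2 window. Of the 36 BG3C2 windows, 4 overlapped a DMAD region (11.1%, against 13.5% of all windows), and of the 25 brain regions 4 did (16.0%, against 9.67%). No member with gained 6mA was called different in RNA where it was tested, which in BG3C2 leaves out chinmo (not tested) and rut (no value). Only 0.254% of all tested genes were called in BG3C2 and 0.762% in brain. So few members therefore cannot show how gained 6mA relates to RNA calls. The log2 fold change was -0.45 for Fas2 and -0.31 for dnc in BG3C2, and from -0.31 to 0.07 for Fas2, dnc, rut, chinmo and dac in brain, in the authors' deposited tables.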

How the data were processed

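Expression values are FPKM in 2 gene-level tables made with Cuffdiff, per the file headers, which also hold the authors' log2 fold change (perturbed over control), p-value and q-value. The submitters' processing notes name build dm3, MACS 1.4.2, Cuffdiff 2.2.1, TopHat2 2.0.8 and Bowtie 0.12.9, with neither roles nor settings. The brain columns are headed FR.WT and FR.KO; the prefix is not explained. Peak lists hold the authors' MACS score per peak; the DMAD, Pc, Wds and gained 6mA lists hold positions only, and which libraries were merged is not given in the sources used here.

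Calls are the authors' (status OK, q below 0.05, flag yes) and no test was fitted here. Loci are those of the tables, read as counting from 0, since their length equalled the RefSeq gene length for 4267 of 11642 symbols (76 were 1 longer). Gained BG3C2 windows of 1000 bp begin 1 base past a multiple of 1000, so their starts were taken as 1-based. Overlap means at least 1 bp; gene identifiers came from a FlyBase symbol table, and RefSeq annotation (Release 6) gave the name plum for CG6490. Interval counting was tested on simulated data. Members and lists were chosen with earlier results of these data known, as was the grouping of members by BG3C2 level. From each list the 2 highest and 2 lowest log2 fold changes per table with FPKM of at least 1 in both groups are named; no gene of the 4 lists was called. Python 3.11.15, pandas 2.3.3 and numpy 2.4.6 were used.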

Additional observations from a re-analysis of the deposited data

How the results depend on the processing

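No member passed at a q below 0.01 or at an unadjusted p below 0.05, in either tissue. Of 39 alternative member log2 fold changes (pseudocounts of 1 and 0.1 FPKM, centring on the median), 0 changed sign and 5 moved by 0.1 or more, all of genes below 1 FPKM in BG3C2: with a pseudocount of 1 FPKM, ey was at -0.06, dac at 0.06 and chinmo at -0.02. With an FPKM floor of 1 in both groups or with centring, list medians moved by less than 0.05. Region counts at members stayed within 1.5 times the count given when 50% of the region had to overlap or loci were extended by 1 kb, except H3K4me3: extension gave 7 control and 8 knockdown peaks in place of 4 and 5, through peaks on neighbouring genes. Keeping the upper 50% of peaks by score gave 0 and 0. Shared peaks kept their counts within 1.5 times when 50% of the control peak had to overlap. No paired analysis was possible because the tables hold 1 value per group, and for the same reason no library could be left out. Depth is unknown, so no interval is given for genes near 0 FPKM.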
